A study of Danio rerio with 15 samples.

Results

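Double feeding was compared with standard feeding in the skeletal muscle of scaf1-/- zebrafish. The comparison takes 8 of the 15 fish of the study, chosen by their labels alone: 4 scaf1-/- fish on the double diet (marks 2, 3, 6 and 7) and 4 scaf1-/- fish on the standard diet (marks 6, A, B and C). All were females of the first scaf1 deletion line (Δ1), were 7 months old when the diets began according to the methods, and stayed on their diet for 6 weeks. By the labels the dry food Gemma-300 was given 5 times per day on the double diet and 3 times per day on the standard diet, to 13 fish in a 2 l tank. The methods count a daily artemia feed on weekdays among these feeds, which gives the same totals, but describe fewer feeds at weekends and fewer fish per tank during the diets. The deletion was made with CRISPR guides and was present in every cell of all 8 fish, and the labels do not say which fish shared a tank. The other 7 fish were scaf1+/+ controls, 3 on the double diet and 4 on the standard diet, and enter the comparison of the diet effect between genotypes, the fits over 14 or 15 libraries, and the values given beside single transcripts. The scaf1+/+ standard diet fish C had 4045333 counts, against 11671308 to 15844496 in the other 14 libraries. For a transcript of low abundance a count of 0 there says less.

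Scaf1, also called Cox7a2l, is a small mitochondrial protein that joins respiratory complex III to complex IV in a supercomplex. Each respiratory complex except complex II contains subunits made from the mitochondrial genome, while its other subunits come from the nucleus. Skeletal muscle depends on this chain for sustained contraction, and its messenger RNA is dominated by a small number of contractile, energy-handling and mitochondrial transcripts. The study used the second diet to ask how muscle without Scaf1 responds when more food is offered. Values come as kallisto's estimated counts for 57775 transcript identifiers, which nothing in the files links to genes. Gene names are therefore not given for single transcripts, scaf1 itself and the markers of muscle and other tissues could not be checked, and the identifiers of only 4 transcripts are printed.

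The fish of the standard diet fell into 2 pairs, 6 with A and B with C, and the double diet fish lay between these pairs. Total counts were 13359354 to 15453518 in the double diet fish and 12037102 to 15844496 in the standard diet fish, so depth differed little. Transcripts with at least 1 count numbered 29270, 29469, 30839 and 30236 in double diet fish 2, 3, 6 and 7. In the standard diet they numbered 35800 and 34455 in fish 6 and A, and 27848 and 27748 in fish B and C. Every double diet fish thus detected fewer transcripts than fish 6 and A and more than fish B and C. The order was the same when all libraries were thinned to the lowest total, with 28614 to 30578 in the double diet fish, 34455 and 35160 in fish A and 6, and 27330 and 27637 in fish C and B. The mean was 29954 ± 722 on the double diet and 31463 ± 4267 on the standard diet (SD, n = 4 each). This difference of -1509 was not larger than the spread between fish (exact permutation test over 70 splits, two-sided, p = 0.486, where 0.0286 is the smallest p possible). It was -63.5 without standard diet fish 6, -511.8 without fish A, -2714 without fish B and -2748 without fish C.

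The 100 most abundant transcripts of a library took 64.1%, 61.4%, 52.6% and 58.3% of its counts in double diet fish 2, 3, 6 and 7. They took 41.8% and 47.3% in standard diet fish 6 and A, and 64.7% and 66.7% in fish B and C. Muscle of fish B and C was thus more concentrated in a few transcripts than that of each double diet fish, and muscle of fish 6 and A less so. The means were 59.1% ± 4.97 on the double diet and 55.1% ± 12.4 on the standard diet (SD, n = 4 each), 3.97 percentage points apart (exact permutation test, two-sided, p = 0.629). Without standard diet fish 6 the difference changed sign, to -0.46 percentage points.

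**Figure D1:**
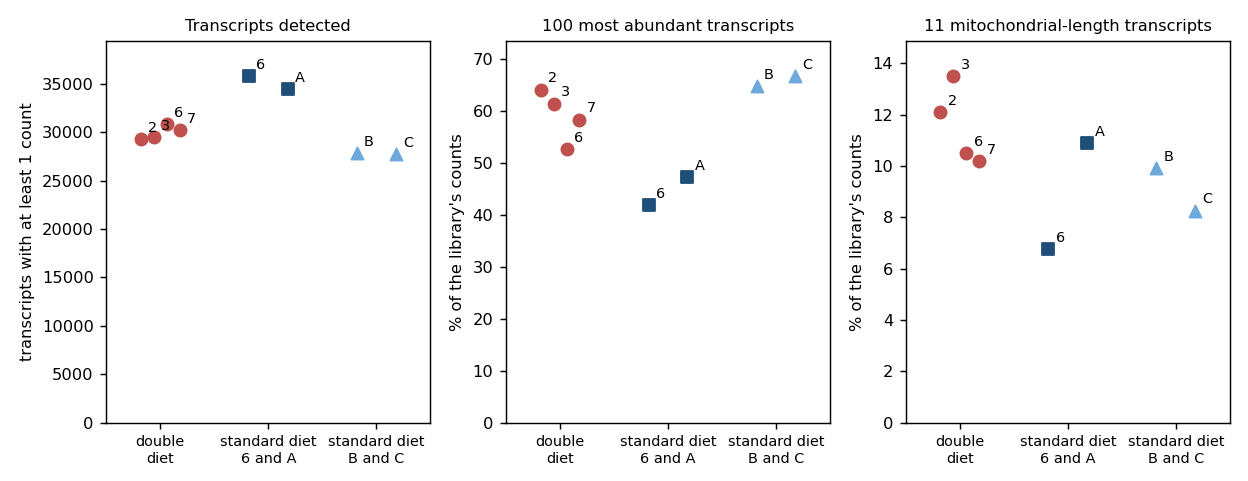
The panels show, for each scaf1-/- fish (1 point, labelled with its mark), the number of transcripts with at least 1 count, the percentage of counts in the 100 most abundant transcripts, and the percentage in 11 transcripts with the length of a mitochondrial gene. The 4 double diet fish stand left, at 29270 to 30839 detected transcripts, between standard diet fish 6 and A (34455 and 35800) and fish B and C (27748 and 27848).

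A principal component analysis of log2 CPM (counts in proportion to the library size, scaled by the trimmed mean of M values, TMM) showed the same arrangement. The first component held 42.8% of the variance and placed double diet fish 2, 3, 6 and 7 at -23.9, 45.7, 78.1 and -74.8. Standard diet fish 6 and A were at 143.8 and 102.0 and fish B and C at -132.7 and -138.2, at opposite ends with all double diet fish between them. The second component held 18.9% and placed double diet fish 2, 3 and 6 at -75.0, -107.0 and -59.2, below every standard diet fish (14.25 to 99.32), but fish 7 at 39.7, among them. Across transcripts the double diet fish correlated with each other at r = 0.74 to 0.869. The correlation was 0.876 between standard diet fish 6 and A and 0.889 between B and C, but only 0.619 to 0.694 from one pair to the other. Double diet fish correlated with fish 6 and A at 0.651 to 0.811 and with fish B and C at 0.704 to 0.84. These correlations describe libraries over the transcripts they share and are not independent replicates. No label, date or lane separates the pairs, since all libraries were given as lane 5, and whether tank, RNA quality or the makeup of the dissected tissue differed between them was not tested.

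**Figure D2:**
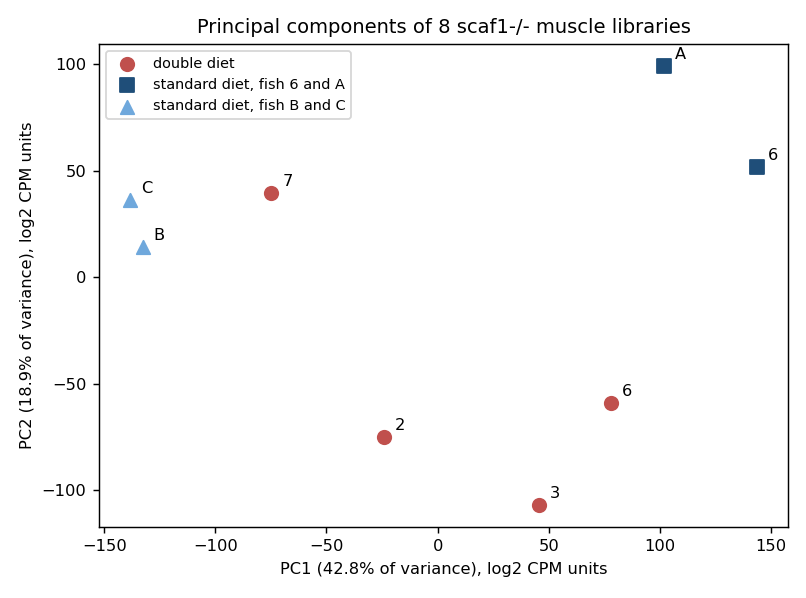
The plot sets the first principal component (42.8% of variance) against the second (18.9%), both in log2 CPM units, with 1 point per scaf1-/- fish labelled with its mark. Standard diet fish 6 and A (143.8 and 102.0) and fish B and C (-132.7 and -138.2) lie at opposite ends of the first component, and the 4 double diet fish lie between -74.8 and 78.1.

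With these fish, no transcript passed the test of diet. The quasi-likelihood test of edgeR covered the 19817 transcripts left by its filter on low counts and called 0 (0.0%) when an adjusted p under 0.05 and an absolute log2 fold change above 1 were required. The smallest adjusted p was 0.177, and 1097 transcripts (5.54%) had an unadjusted p under 0.05, close to the share of 0.05 expected where nothing differs. The common biological coefficient of variation was 0.701. In 948 transcripts (4.78%) the fish of the diets did not overlap, with all double diet fish higher in 484 (2.44%) and all lower in 464 (2.34%). Where nothing differs, a share of 0.0286 would be expected not to overlap. Transcripts vary together, and the excess over this share was not tested. DESeq2 on the same 8 fish called 224 of the 27321 transcripts it tested (0.82%). The double diet was the higher in 79 and the lower in 145 of these, and 75 had no count in any fish of 1 diet. Only 126 of the 224 were among the 19817 transcripts that edgeR tested, so the sets tested differed as well as the tests. Other fits gave 214 calls with shrunken fold changes (0.783%), 143 with all 15 libraries (0.457%) and 362 with 14 (1.26%), while edgeR with 14 libraries called 1 (0.00372%). On simulated counts of this comparison with 100 transcripts changed at each size, edgeR called 10 at a log2 fold change of 2 and 76 at 4, with 2 false calls among 19817. DESeq2 called 25 and 90, with 39 false calls. Fish of a diet shared the same mean in the simulation, so the standard diet pairs entered only through the spread. The median log2 fold change over all transcripts was -0.01 under TMM scaling and -0.35 under library totals alone, so a level change of this size depends on the scaling.

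Of the transcripts with a mean of at least 5 CPM, the 12 of lowest p in each direction are described here although none passed the adjustment. In all 24 the fish of the diets did not overlap, which their choice by p favours, and the edgeR adjusted p ran from 0.177 to 0.683. On the same fish DESeq2 gave each an adjusted p under 0.05, which their choice by p also favours. The transcript of lowest p among those higher on the double diet was ENSDART00000171479.2, of 3177 bases. It had 30.0, 24.4, 14.6 and 7.35 CPM in double diet fish 2, 3, 6 and 7, and no count in any of the 4 standard diet fish. With a floor of 3 counts per library, averaged to 0.228 CPM over the standard diet fish, it was at least 83.9-fold higher on the double diet (edgeR adjusted p = 0.177). The counts behind the double diet values were 89 to 353. In scaf1+/+ fish, given in CPM without TMM scaling, it had 0, 0 and 3.58 CPM on the double diet and 1.25 (fish 6), 0 (7), 0 (B) and 68.2 (C) on the standard diet. Its absence on the standard diet thus held in control fish 7 and B, but not in fish 6 or in the shallow fish C. The high control value rests on fish C alone.

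The next, ENSDART00000183015.1 of 4379 bases, had 10.98, 32.9, 8.08 and 13.3 CPM in double diet fish 2, 3, 6 and 7. It had 0.82 and 1.61 CPM in standard diet fish 6 and A, and 0.84 and 1.57 CPM in fish B and C. The groups were far apart and the 2 standard diet pairs were alike, with a log2 fold change of 3.75 ± 0.55 (SE; edgeR adjusted p = 0.252). Its value against fish 6 and A alone was 3.80, and against fish B and C alone 3.71. By DESeq2 its adjusted p was 3.19e-07 with the 8 fish, but 0.462 with 15 libraries and 0.139 with 14. The other transcripts printed by identifier stayed under 0.05 in both of these larger DESeq2 fits. Those fits hold the 8 fish by which the transcripts were chosen, so nothing is read from this. DESeq2 with 15 libraries put ENSDART00000171479.2 and ENSDART00000147487.2 at log2 fold changes of 23.19 and -24.67, against 10.54 and -10.25 with the 8 fish. Their edgeR adjusted p was 0.841 each with 15 libraries, and 0.461 and 0.474 with 14.

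Among the more abundant of these transcripts, one of 2684 bases had 389.3, 389.3, 442.0 and 602.4 CPM in double diet fish 2, 3, 6 and 7. In the standard diet it had 109.3 and 124.6 CPM in fish 6 and A, and 190.4 and 111.3 CPM in fish B and C, a log2 fold change of 1.77 ± 0.33 (SE; edgeR adjusted p = 0.427). A transcript of 691 bases varied little within the double diet, at 81.1, 82.2, 89.2 and 84.1 CPM, against 35.35 and 31.12 CPM in fish 6 and A and 49.7 and 27.5 CPM in fish B and C. It had a log2 fold change of 1.23 ± 0.26 (SE; edgeR adjusted p = 0.607). In both, all double diet fish were above all standard diet fish and neither standard diet pair stood out. The 12 transcripts had log2 fold changes between 1.12 and 11.13 and lengths between 691 and 6191 bases.

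In the other direction, 3 transcripts had no count in any double diet fish and at least 74 counts in every standard diet fish. ENSDART00000147487.2, of 830 bases, had 9.87 and 32.3 CPM in standard diet fish 6 and A, and 14.2 and 13.3 CPM in fish B and C. Against a floor of 3 counts per library (mean 0.235 CPM over the double diet fish) it was at least 74.2-fold lower on the double diet (edgeR adjusted p = 0.177). Its scaf1+/+ values were 5.85, 63.5 and 0.28 CPM on the double diet, and 1.34 (fish 6), 0 (7), 46.5 (B) and 0 (C) CPM on the standard diet. Its level thus varied widely among the scaf1+/+ fish of each diet, and on the standard diet its presence did too.

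ENSDART00000147947.2, of 8535 bases, had no count in double diet fish, against 17.7 and 28.9 CPM in standard diet fish 6 and A and 10.9 and 8.80 CPM in fish B and C. It was at least 70.5-fold lower on the double diet (edgeR adjusted p = 0.177). This was the 1 transcript that edgeR called with 14 libraries (adjusted p = 0.00332), but with 15 libraries its edgeR adjusted p was 0.709. Earlier results of these data had already named it. In scaf1+/+ fish it was at 72.0, 17.8 and 36.1 CPM on the double diet and at 101.9 (fish 6), 142.0 (7), 51.3 (B) and 0 (C) CPM on the standard diet. Every control fish but standard diet fish C thus had it, whichever its diet. Fish C also stood apart in an abundant transcript of 1430 bases, at 2.72 CPM against 7618 to 29546 CPM in the other scaf1+/+ fish. Its absences are therefore not put down to depth, and their cause was not tested.

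**Figure D3:**
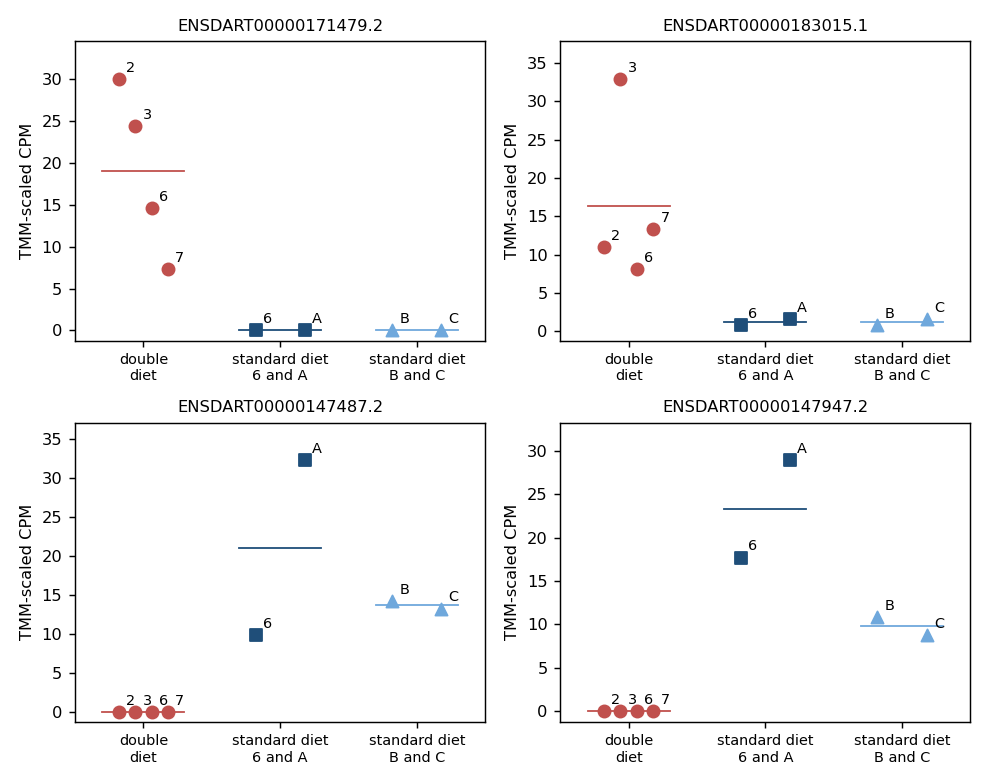
The panels show the TMM-scaled CPM of the 2 transcripts of lowest p in each direction, among those with a mean of at least 5 CPM. Each point is 1 scaf1-/- fish labelled with its mark, and lines are group means. Double diet fish stand left, with the standard diet pairs apart. ENSDART00000171479.2 is at 7.35 to 30.0 CPM on the double diet and at 0 on the standard diet, and ENSDART00000147487.2 and ENSDART00000147947.2 are at 0 on the double diet alone.

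A transcript of 2276 bases was the most abundant of the 12 that were lower, with 45.5, 55.9, 24.5 and 61.2 CPM in double diet fish 2, 3, 6 and 7. Standard diet fish 6 and A had 106.6 and 290.3 CPM, and fish B and C 389.05 and 301.95 CPM, giving a log2 fold change of -2.54 ± 0.48 (SE; edgeR adjusted p = 0.430). A transcript of 2093 bases was at 1.93 to 2.56 CPM in the double diet fish but ranged from 12.9 to 145.75 CPM in the standard diet fish, highest in fish B. The 12 transcripts had lengths between 830 and 13518 bases.

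Presence in 1 diet alone was rare. Of the 57775 transcripts, 94 had no count in any double diet fish and a count in every standard diet fish, and 42 had the opposite. Most were near the floor, with 19 of the 94 and 11 of the 42 reaching a mean of 1 CPM in the diet that had them, and 4 and 1 reaching 5 CPM. Only 6 of the 94 and 5 of the 42 were abundant enough to be tested by edgeR. Of the 94, 29 had a count in all 3 scaf1+/+ fish on the double diet and 11 in none of them. Of the 42, 7 had no count in any scaf1+/+ fish on the standard diet. No share is read from these counts, since the transcripts were selected by the same values.

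Mitochondrial transcripts could be reached only by length. For each of the 13 protein-coding mitochondrial genes of zebrafish in RefSeq (GRCz12tu), the most abundant transcript of exactly that length was taken where it stood at least 10 times above the next one of that length. This gave 11 transcripts, at least 68.5 times above the next. ATP8 had no counted transcript of its length, and for ND1 the most abundant was only 1.56 times above the next. The match rests on length and abundance, was chosen after abundances were seen, and is no annotation. Each transcript is called by the gene whose length it has.

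These 11 transcripts together took 12.1%, 13.5%, 10.5% and 10.2% of counts in double diet fish 2, 3, 6 and 7. They took 6.75% and 10.9% in standard diet fish 6 and A, and 9.91% and 8.26% in fish B and C. The means were 11.6% ± 1.55 on the double diet and 8.95% ± 1.82 on the standard diet (SD, n = 4 each), and fish A of the standard diet was above fish 6 and 7 of the double diet. In these bulk samples a different share of fibres rich in mitochondria and a different amount of such RNA per fibre cannot be told apart.

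COX1, the catalytic core of complex IV, was the most abundant transcript of all, at 53462, 43076, 38696 and 43586 CPM in double diet fish 2, 3, 6 and 7. It had 16160 and 35673 CPM in standard diet fish 6 and A, and 41765 and 38708 CPM in fish B and C. With TMM scaling fish B and C thus lay within the double diet range, and fish 6 far below it (log2 fold change 0.43 ± 0.45, SE; edgeR adjusted p = 0.998). As a share of counts COX1 took 3.87% to 4.6% in the double diet fish. It took 2.97% and 4.96% in fish 6 and A, and 3.06% and 2.65% in fish B and C. By that measure fish B and C were below every double diet fish, and fish A was above them all. COX2, which holds the site that takes electrons from cytochrome c, had 26370, 22353, 15911 and 20296 CPM in double diet fish. It was at 4536 and 11213 CPM in standard diet fish 6 and A and at 21197 and 17001 CPM in fish B and C, and its log2 fold change of 0.65 was the largest of the 11 (edgeR adjusted p = 0.980).

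CYTB, the mitochondrially encoded subunit of complex III, had 20893, 20246, 9766 and 15585 CPM in double diet fish 2, 3, 6 and 7. Standard diet fish 6 and A had 4499 and 9868 CPM, and fish B and C 18613 and 14511 CPM. ATP6, part of the proton channel of ATP synthase, had 15509, 21594, 5293 and 7662 CPM on the double diet. It had 2368 and 4348 CPM in standard diet fish 6 and A, and 15359 and 16652 CPM in fish B and C. In both, double diet fish 2 and 3 were near or above fish B and C, and double diet fish 6 was the lowest of its diet.

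The complex I subunits were similar, except that in ND3 double diet fish 7 (824 CPM) was the lowest of its diet, with fish 6 at 1355 CPM. In ND5, double diet fish 6 and 7 (1210 and 1784 CPM) were below standard diet fish A (2200 CPM). ND4, from the membrane arm, had 8992, 9863, 3602 and 4498 CPM in double diet fish 2, 3, 6 and 7, against 2198 and 3549 CPM in standard diet fish 6 and A and 7922 and 7143 CPM in fish B and C. ND4L was the lowest of the 11, at 134 to 274 CPM on the double diet and 120 to 264 CPM on the standard diet, with a log2 fold change of 0.01. All 11 log2 fold changes were positive (0.01 to 0.65, median 0.43, against -0.01 over all transcripts). Tested transcripts of 1000 CPM or more had a median of 0.13 with 66.3% positive, and those under 1000 bases 0.24 with 64.4%. None of the 11 had an unadjusted edgeR p under 0.05 (lowest 0.248), against 5.54% of all transcripts tested. The diets overlapped in all 11, and over all transcripts only 4.78% did not overlap. With shares this small, 0 of 11 says little. Leaving out each fish in turn gave medians of 0.19 (8 of 11 positive, without standard diet fish 6) to 0.72 (without standard diet fish B), and 9 of 11 were positive without double diet fish 2 or 3. With library totals in place of TMM 9 of the 11 were positive, and with median-ratio scaling 10. With TMM the size and the sign depended on the standard diet pair. Against fish 6 and A all 11 were higher on the double diet (median 1.33), and against fish B and C 2 of 11 were higher (median -0.20). The TMM factors were 1.87 and 1.41 in fish 6 and A, but 0.734 and 0.687 in fish B and C. As a share of counts the 11 together were lower in fish B and C (9.91% and 8.26%) than in each double diet fish (10.2% to 13.5%). For the 11 together the sign against fish B and C thus depended on the scaling too.

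**Figure D4:**
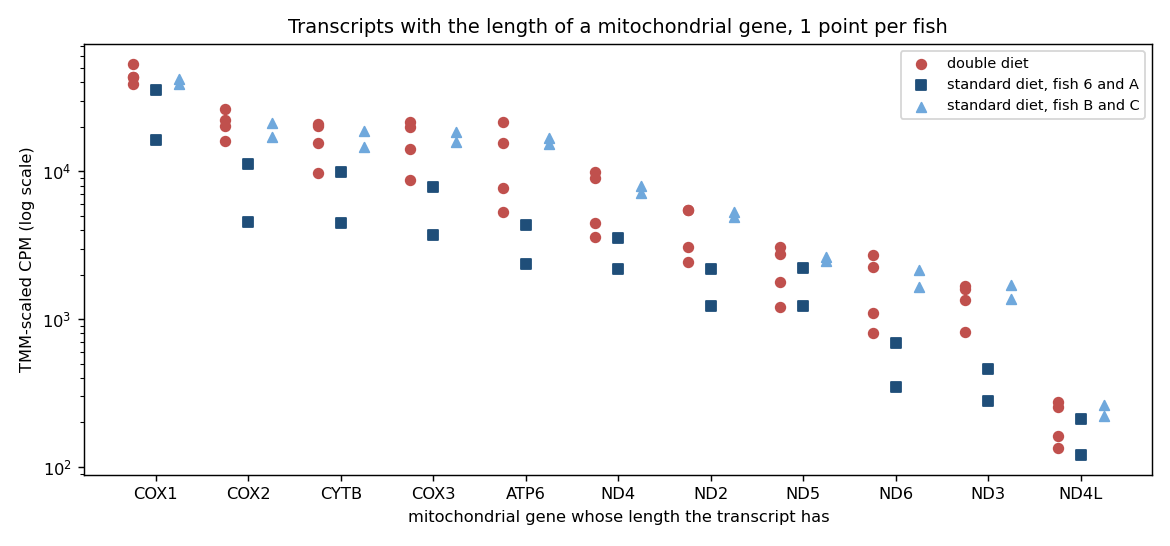
The plot gives the TMM-scaled CPM (log axis) of the 11 transcripts with the length of a mitochondrial gene, with 1 point per scaf1-/- fish: double diet left, standard diet fish 6 and A in the middle, fish B and C right. On this scale fish 6 and A lie below fish B and C in each transcript. The double diet fish are spread over the ranges of both pairs, between them or above them. The exception is ND5, where double diet fish 6 (1210 CPM) is just below standard diet fish 6 (1222 CPM). COX1 has 38696 to 53462 CPM on the double diet, 16160 and 35673 CPM in fish 6 and A, and 38708 and 41765 CPM in fish B and C. As a share of counts, which is not plotted per transcript, COX1 is higher in fish A (4.96%) than in fish B and C (3.06% and 2.65%).

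With TMM scaling, fish 6 and A were also below fish B and C in the others of the 10 most abundant transcripts. The TMM factors differed between the pairs, so the size of these gaps depends on the scaling. One of 5906 bases had 59219, 38287, 23376 and 40814 CPM in double diet fish 2, 3, 6 and 7. It had 7718 and 6828 CPM in standard diet fish 6 and A, against 56394 and 74403 CPM in fish B and C. Another, of 1246 bases, had 55776 and 41363 CPM in double diet fish 2 and 3, but 9507 and 15591 CPM in fish 6 and 7. Its standard diet values were 7384 and 7024 CPM in fish 6 and A and 49867 and 68991 CPM in fish B and C, so here the double diet fish themselves divided, with 2 and 3 near fish B and C. In one of 1624 bases, double diet fish 3 and 6 (12432 and 11453 CPM) were below every standard diet fish (lowest 12693 CPM, fish 6). Over the 10 most abundant transcripts the log2 fold change against all 4 standard diet fish was -0.28 to 0.65, and all 10 overlapped between diets.

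By abundance, the 98 tested transcripts with a mean of at least 1000 CPM had a median log2 fold change of 0.13 on the double diet. This became 1.32 against fish 6 and A alone and -0.45 against fish B and C alone, both with TMM scaling, which affects their size. As a share of counts this class took 51.8% to 63.7% in the double diet fish. It took 40.0% and 46.4% in fish 6 and A, and 64.2% and 66.2% in fish B and C. The 13248 transcripts under 10 CPM had a median of -0.06, with -0.13 against fish 6 and A and 0.19 against fish B and C. By length, the 3079 transcripts under 1000 bases had a median of 0.24 with 64.4% positive, and the 4463 of 4000 bases or more a median of -0.14 with 38.4% positive. Among the short ones all double diet fish were higher in 134 (4.35%) and lower in 35 (1.14%), and among the long ones higher in 80 (1.79%) and lower in 159 (3.56%), set beside 2.44% and 2.34% over all transcripts. With library totals both medians were below 0, at -0.01 and -0.46, but the short transcripts stayed above the long ones. Against fish 6 and A the medians were 0.64 and -0.04, and against fish B and C 0.01 and -0.06, so short and long transcripts were farther apart against fish 6 and A than against fish B and C. The part of RNA quality in this was not tested.

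**Figure D5:**
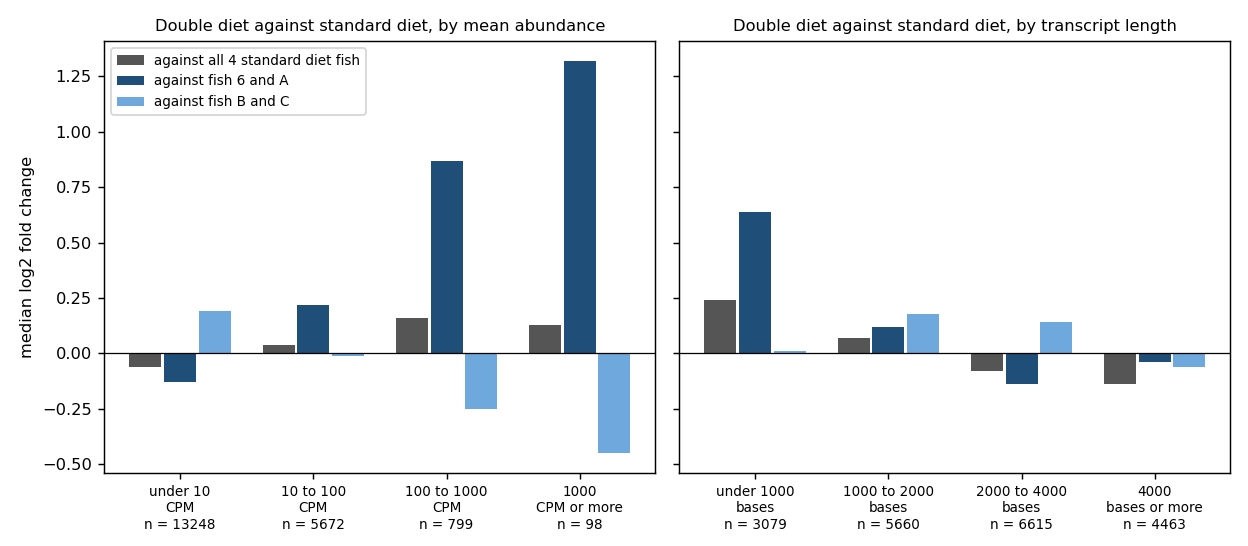
Bars give the median log2 fold change, double diet over standard diet, of tested transcripts by mean abundance (left) and by length (right), against all 4 standard diet fish, fish 6 and A alone and fish B and C alone, with the number of transcripts under each class. For transcripts of 1000 CPM or more the median, with TMM scaling, is 1.32 against fish 6 and A and -0.45 against fish B and C.

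Over all transcripts, the means of the standard diet pairs lay farther apart than the means of the diets. Of the 19817 transcripts tested, 9811 (49.5%) differed by more than 1 on the log2 scale between the mean of fish 6 and A and that of fish B and C, 5744 higher in fish 6 and A and 4067 higher in fish B and C. The median size of that difference was 0.99, while the median size of the log2 fold change between diets was 0.37. The pairs were seen in these same data and each averages fewer fish than a diet does, and both favour the larger size. In 7653 of the 9811 (78.0%) the double diet mean lay between the pairs, in 1153 it was above both and in 1005 below both. The 9811 were selected for a wide gap between the pairs, which favours a mean between them, so nothing is read from this share. Double diet fish 7 and 2 were nearer fish B and C in 67.3% and 62.6% of the 9811, and fish 3 and 6 in 45.8% and 34.8%. The double diet fish thus differed among themselves in which standard diet pair they resembled.

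The choice of pair also decided the calls. Against fish 6 and A alone, edgeR called 15 of 24724 transcripts (0.0607%), 11 in which the double diet was higher and 4 in which it was lower. In 14 of the 15, fish B and C were nearer to the double diet fish than to fish 6 and A, and 7 had no count in fish 6 and A. The 15 were called for a wide gap between the double diet fish and fish 6 and A, which favours both, so nothing is read from these counts. A transcript of 1714 bases had 184.8, 201.0, 137.4 and 132.8 CPM in double diet fish 2, 3, 6 and 7, no count in standard diet fish 6 and A, and 300.0 and 211.2 CPM in fish B and C. One of 1698 bases had 10.98, 3.83, 6.77 and 8.10 CPM in the double diet fish, but 330.5 and 442.7 CPM in fish 6 and A and 5.65 and 24.2 CPM in fish B and C. In both, fish 6 and A stood apart from the double diet fish and from fish B and C of their own diet. A transcript of 767 bases, picked out as different from these, had 12.7 to 23.1 CPM in the double diet fish, no count in fish 6, A and B, and 10.8 CPM in fish C. Against fish B and C alone edgeR called 0 of 21133, with 3120 at an unadjusted p under 0.05 and a smallest adjusted p of 0.0573. Against fish 6 and A alone 4705 of 24724 had an unadjusted p under 0.05 by edgeR, and both shares were above 0.05. DESeq2 called 2044 against fish 6 and A (7.33%; 1201 higher, 843 lower) and 1268 against fish B and C (5.58%; 989 higher, 279 lower). The comparisons share the double diet fish. The pairs were set apart because their fish were alike in these same data. That favours low p and more calls in both tests, so no effect of diet is read from these numbers. Double diet fish were all higher or all lower than fish 6 and A in 17.9% and 17.2% of the transcripts tested. Against fish B and C the shares were 15.6% and 12.1%. With only 2 standard diet fish, groups that do not overlap arise by chance more often than with all 4. These shares therefore cannot be set against the 2.44% and 2.34% found with all 4 standard diet fish.

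Whether the diet effect differed between scaf1-/- and scaf1+/+ fish was tested as an interaction over all 15 libraries. With edgeR 0 of 26970 transcripts were called (0.0%), 1044 had an unadjusted p under 0.05, and DESeq2 called 60 of 26685 (0.225%), 28 with a higher and 32 with a lower log2 fold change in scaf1-/- fish. The scaf1+/+ standard diet fish C, with 15655 detected transcripts, stood apart from the other 14 libraries (27748 to 35800). Without it edgeR called 1 transcript, ENSDART00000147947.2 (adjusted p = 0.0475), which on the double diet had no count in scaf1-/- fish and 17.8 to 72.0 CPM in scaf1+/+ fish.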

How the data were processed

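RNA of muscle from single female fish was isolated with TRIzol, purified on columns and sequenced on an Illumina HiSeq, by the labels as directional libraries in lane 5. The authors checked reads with FastQC 0.11.8 and pseudo-aligned them with kallisto 0.45.0 to the cDNA of Ensembl release 94, and deposited estimated counts per transcript with length and effective length. The processing notes also name sleuth, and the methods name DESeq2 with shrinkage. Pseudo-alignment splits reads among transcripts of a gene, so absence of a transcript need not mean absence of its gene.

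Estimated counts were rounded to whole numbers, filtered by filterByExpr (smallest count 10), TMM-scaled and compared by the robust quasi-likelihood test of edgeR 4.0.16 (R 4.3.3), with Benjamini-Hochberg adjustment over all transcripts tested. Only the 8 scaf1-/- fish entered, because 1 scaf1+/+ library holds few transcripts. The interaction used all 15. A call needed an absolute log2 fold change above 1 at an adjusted p under 0.05. Total counts of the 8 fish were 12037102 to 15844496, and floors of 3 counts cover counting error only. Each library is 1 fish by its description.

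Named transcripts were the 12 of lowest p in each direction at a mean of 5 CPM or more, those absent in 1 diet, the 10 most abundant, and ENSDART00000147947.2. Where not all were described, the examples were picked after their values were seen. Fish, lists and tests were chosen with earlier results of these data known. Gene lists and marker lists had been drawn up but were not used, since no table pairing the transcripts with genes was used here. DESeq2 1.42.0, limma 3.58.1 on TPM computed here, other scalings, filters and samples, and leaving out each library were alternatives. Tests were tried on simulated counts.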

Additional observations from a re-analysis of the deposited data

Results flagged for a closer look

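Of 94 sets of 4 values looked at (totals, detected transcripts, shares of counts, and the CPM of the named and the mitochondrial-length transcripts, each within 1 diet), 2 held a fish far from the other 3, and chance flags about 1 in 20 such sets. Double diet fish 2 had a total of 15453518 counts, with the other 3 double diet fish between 13359354 and 13540237. In a transcript of 1430 bases, the sixth most abundant, double diet fish 7 had 41698 CPM, with the other 3 double diet fish between 21481 and 24781 CPM.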

How the results depend on the processing

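The count of 0 calls by edgeR between the diets held with median-ratio scaling, library totals, an adjusted p alone, the 100 most abundant transcripts left out, limma on log2(TPM + 1), limma with library weights, all 15 libraries, fish B and C alone, and each of the 8 fish left out in turn (0 to 0 calls, 828 to 1526 at an unadjusted p under 0.05). It became 4 with no filter on low counts (the 3 transcripts absent on the double diet and ENSDART00000171479.2), 8 with limma on log2(TPM + 0.1), 1 with 14 libraries and 15 against fish 6 and A alone. DESeq2 called 224, 214 with shrinkage, 143 with 15 libraries, 362 with 14 libraries, 2044 against fish 6 and A and 1268 against fish B and C. Library totals and the last pair of DESeq2 fits were chosen after seeing the data. The causes of these differences were not tested, but fewer transcripts or fish enter some of them. The interaction had 0 calls by edgeR, 1 without scaf1+/+ standard diet fish C (range 0 to 1 over the 15 fish left out in turn) and 60 by DESeq2.

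Leaving out each fish, the difference in the 100 most abundant transcripts ran from -0.46 to 7.82 percentage points (without standard diet fish 6 and C), and that in detected transcripts from -2748 to -63.5 (without standard diet fish C and 6). The median of the 11 mitochondrial-length transcripts was 0.43, and -0.20 by edgeR and -0.18 by DESeq2 against fish B and C. Neither fit against fish B and C used library totals. As a share of counts the 11 together were lower in fish B and C than in each double diet fish. The 4 transcripts printed by identifier kept their direction in every fit that gave them a value. Their selection made this outcome near certain, since in each the fish of the diets did not overlap, so nothing is read from it. No paired analysis was possible because the diets share only mark 6; the replicate block over all 15 libraries gave 0 calls and 1267 at an unadjusted p under 0.05. Sums per gene were not run. On simulated counts with 4 fish a diet and no pairs within a diet, edgeR called 10 of 100 transcripts changed by a log2 fold change of 2.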
